A study of Mus musculus with 20 samples.

Results

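The serpins are a family of 40 genes on this array, out of 18193 genes measured by a probe set with a single symbol. A gene counted as a member where a probe set carried exactly 1 symbol and that symbol begins with Serpin, and each member was read from the brightest of its probe sets, by the mean log2 of all 20 arrays. The letter of the symbol gives the clade, with 14 members in clade a, 18 in clade b and 8 in the clades c, d, f, g, h and i. The arrays were hybridised with RNA of medullary thymic epithelial cells sorted from single thymi of male mice aged 3 to 4.5 weeks. Aire knockout (KO) and wild-type (WT) mice of 3 inbred strains were compared, namely NOD (3 KO and 3 WT), BALB (4 KO and 4 WT) and B6 (3 KO and 3 WT). The sort kept cells without CD45, a marker of haematopoietic cells, that stained for the epithelial antibody G8.8, at an intermediate level for Ly51 and at a high level for MHC class II. The series title names the question as the effect of Aire in individual mice of different genetic backgrounds. The labels give no allele or source for the knockout and no substrain, so KO stands for mice labelled KO.

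Serpins share a fold in which an exposed loop acts as bait for a protease. When the protease cuts the loop, an inhibitory serpin snaps into a new shape and traps the enzyme in a covalent complex, so each molecule is used up by the protease it stops. Clade a holds mainly proteins secreted by the liver into plasma, among them antitrypsin and carriers of thyroid and steroid hormones that no longer inhibit anything. Clade b proteins stay mainly inside cells and are known from squamous epithelia and leukocytes, and in mice several of their genes have expanded into groups of close copies. Aire is a nuclear protein through which medullary thymic epithelium transcribes many genes of other organs, so that developing T cells meet their products.

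Values below are log2 of the deposited intensities, and a difference is KO minus WT on that scale, so that 1 unit is a 2-fold change and a negative difference means lower in KO mice. A member was called where limma's moderated test over all 45037 probe sets gave a Benjamini-Hochberg adjusted p under 0.05. Array medians lay between 86.3 and 90.9 intensity units on all 20 arrays. The medullary epithelial markers, 12 of 12 measured and all above the median of all probe sets, averaged 10.50 to 10.89 over the arrays. The probe set of Aire itself was higher in KO mice by 0.74 ± 0.14 (SE; limma, adjusted p = 0.00104), and no source used here says whether it lies outside the deleted part, so it is no check of the genotype. The difference between the 3' and 5' Gapdh control signals (log2) is a measure of RNA quality. A higher value means signal weighted more to the 3' end, so arrays with the lowest values are not the poorest by this measure. The difference was lowest in 3 B6 arrays, at 1.68 and 1.84 in B6 KO mice 2 and 3 and 1.90 in B6 WT mouse 2. It was highest in B6 WT mouse 1, at 3.76, and ran from 2.15 to 3.04 on the other 16 arrays. Leaving out the 3 lowest arrays keeps only KO mouse 1 and WT mice 1 and 3 in B6. A call lost in that fit is therefore lost with fewer B6 mice. Markers of dendritic cells and macrophages were highest in NOD mice 2 and 3, at 8.24 and 8.83 in KO and 8.53 and 9.26 in WT, against 7.34 to 8.23 on the other arrays. Thymocyte markers, 8 of 9 measured, averaged 7.44 and 7.70 in the same KO mice and 8.0 and 8.12 in the same WT mice, against 6.82 to 7.45 on the other arrays. These are bulk samples, so fewer cells of a type and less RNA per cell cannot be told apart. The precision of every value is limited by the 3 or 4 mice per group.

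Serpin genes were more often lower than higher in KO mice. Averaged over the 3 strains, 22 of 40 members were called, 16 lower and 6 higher (limma), where 20.6% of all probe sets were called, 10.1% lower and 10.5% higher. Over the brightest probe set of each gene, which is how the members were chosen, 16.6% were called lower and 9.7% higher. The largest falls were those of Serpinb11 (-1.34), Serpina3a (-1.28) and Serpinb6c (-1.22), and the largest rise was that of Serpina9 (1.31). A change of at least 2-fold was reached by 5 members that fell and 1 that rose. The median difference was -0.12 over the 40 members and 0.06 over all probe sets. By clade, 6 of 14 members of clade a were called (4 lower, 2 higher, median -0.00), 12 of 18 of clade b (9 lower, 3 higher, median -0.33), and 4 of 8 of the others (3 lower, 1 higher, median -0.07). The 18 members not called had differences between -0.29 and 0.36.

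**Figure D1:**
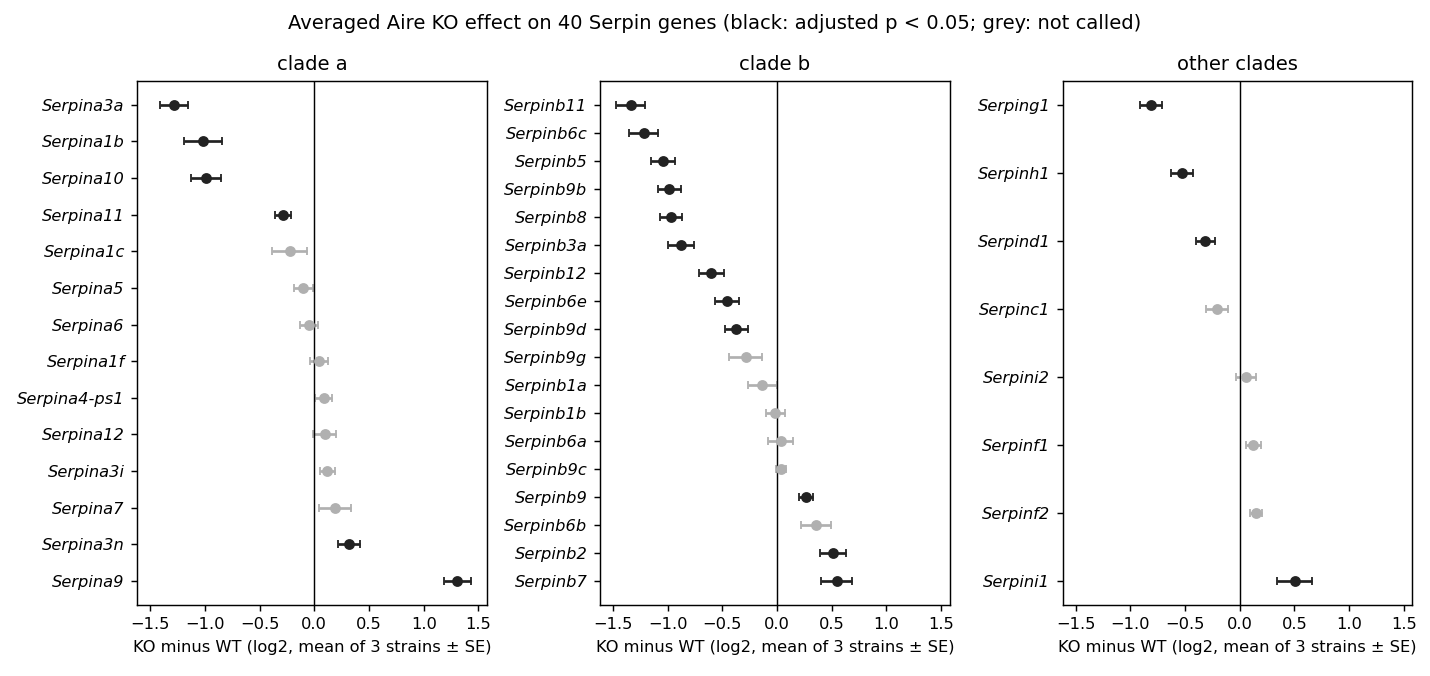
Each point is 1 of 40 Serpin genes at its KO minus WT difference on the log2 scale, averaged over NOD, BALB and B6, with bars of 1 SE; black points were called (limma, adjusted p under 0.05) and grey points were not. The called members run from Serpinb11 at -1.34 to Serpina9 at 1.31, and 12 of the 18 clade b members are black.

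In clade a, the liver-type serpins that fell most were Serpina3a, a member of the antichymotrypsin group that has many copies in mice, Serpina1b, a copy of the elastase inhibitor antitrypsin, and Serpina10, a plasma inhibitor of coagulation factor X. Close copies in the Serpina1 and Serpina3 groups can share probes, so a value may not belong to 1 copy alone. Serpina3a read 6.78, 6.65 and 7.33 in NOD KO mice, against 8.07, 8.19 and 8.39 in NOD WT mice. Serpina3a in BALB read 6.89, 6.46, 6.89 and 6.83 in KO mice, against 8.45, 7.83, 7.51 and 7.94 in WT mice. Serpina3a in B6 read 6.53, 6.15 and 6.16 in KO mice, against 7.55, 7.33 and 8.10 in WT mice. In each strain every KO mouse read lower than every WT mouse. The averaged difference was -1.28 ± 0.13 (SE), a 2.43-fold fall (limma, adjusted p = 8.14e-07), with -1.30 in NOD, -1.16 in BALB and -1.38 in B6.

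Serpina1b had 6.05, 5.64 and 6.17 in NOD KO mice, against 6.09, 7.11 and 7.32 in NOD WT mice. Serpina1b in BALB had 5.58, 5.01, 5.67 and 5.79 in KO mice, against 6.87, 6.29, 7.13 and 7.12 in WT mice. Serpina1b in B6 had 5.03, 5.62 and 5.53 in KO mice, against 5.73, 6.28 and 6.62 in WT mice. The groups overlapped in NOD, where KO mouse 3 read above WT mouse 1, and did not overlap in BALB and B6. Its averaged difference was -1.02 ± 0.17 (SE; limma, adjusted p = 0.000303). A further probe set of Serpina1b read -1.19 (adjusted p = 9.32e-05), with KO mice below WT mice without overlap in all 3 strains. Serpina10 read 6.87, 7.17 and 7.31 in NOD KO mice, against 7.40, 8.01 and 8.19 in NOD WT mice. Serpina10 in BALB read 6.11, 6.41, 6.30 and 6.60 in KO mice, against 7.03, 7.14, 7.45 and 7.60 in WT mice. Serpina10 in B6 read 6.84, 6.31 and 6.33 in KO mice, against 7.64, 7.29 and 8.35 in WT mice. Serpina10 was lower in all KO mice than in any WT mouse of the same strain, and its averaged difference was -0.99 ± 0.14 (SE; limma, adjusted p = 4.15e-05).

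Serpina9, also called centerin and known in humans from germinal centre B cells, was the member that rose most. Serpina9 gave 9.73, 10.08 and 9.90 in NOD KO mice, against 7.52, 7.14 and 7.20 in NOD WT mice. Serpina9 in BALB gave 7.02, 7.37, 6.93 and 6.85 in KO mice, against 6.69, 6.95, 6.71 and 5.73 in WT mice. Serpina9 in B6 gave 8.30, 8.42 and 8.48 in KO mice, against 7.42, 7.69 and 7.74 in WT mice. KO mice lay above WT mice without overlap in NOD and B6, and the groups overlapped in BALB. The averaged difference was 1.31 ± 0.13 (SE), a 2.47-fold rise (limma, adjusted p = 4.77e-07) and was largest in NOD. B cell markers, 5 of 6 measured, of which 2 rose, averaged 8.05 to 8.23 in NOD KO mice against 7.91 to 8.08 in NOD WT mice, 7.63 to 8.55 in BALB KO mice against 7.29 to 8.13 in BALB WT mice, and 7.64 to 8.08 in B6 KO mice against 7.53 to 7.85 in B6 WT mice. Their part in the rise of Serpina9 was not tested.

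Among the other members of clade a, Serpina3n, an acute-phase antichymotrypsin, rose by 0.32 ± 0.10 (SE; limma, adjusted p = 0.0319), with 0.28 in NOD, 0.87 in BALB and -0.18 in B6. This call was lost without B6 KO mouse 1 or 2, B6 WT mouse 1 or 3, BALB KO mouse 3, NOD KO mouse 2, or NOD WT mouse 2 or 3, and over all alternatives its adjusted p ran from 0.00285 to 0.0712. Serpina11 fell by 0.29 ± 0.07 (SE; adjusted p = 0.00772). The hormone carriers did not pass: the difference was -0.05 ± 0.09 for Serpina6, the corticosteroid-binding globulin, and 0.19 ± 0.15 for Serpina7, the thyroxine-binding globulin. Serpina5, the protein C inhibitor, read -0.10 ± 0.09. For the adipokine vaspin, Serpina12, the probe set used read 0.09 ± 0.11 and did not pass, while a dimmer one read 0.31 (adjusted p = 0.00993). By strain, Serpina7 read 0.88 in NOD, 0.02 in BALB and -0.33 in B6. Serpina12 read 0.60 in NOD, 0.12 in BALB and -0.43 in B6 in the probe set used. None of these strain values was called in the main fit. Serpina1c, Serpina1f, Serpina3i and Serpina4-ps1 were the remaining members not called. Hepatocyte markers, all 5 measured, of which 4 fell, averaged 5.90 to 6.21 in NOD KO mice against 7.34 to 7.83 in NOD WT mice, 6.90 to 7.13 in BALB KO mice against 7.88 to 8.25 in BALB WT mice, and 6.69 to 6.73 in B6 KO mice against 8.47 to 8.62 in B6 WT mice, and their part in the clade a values was not tested.

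Clade b held the largest number of called members. The cluster on mouse chromosome 1 has 7 measured members in the RefSeq gene order Serpinb5, Serpinb12, Serpinb3a, Serpinb11, Serpinb7, Serpinb2 and Serpinb8, and all 7 were called. Serpinb7 and Serpinb2 were higher in KO mice, and the 4 members on one side and Serpinb8 on the other were lower. The shares over the brightest probe set of each gene were 16.6% called lower and 9.7% called higher. The promoters of the 4 neighbours from Serpinb11 to Serpinb8 are shown because these genes lie next to each other among the measured members and moved in both directions, and that of Serpina3a because it fell most in clade a. The sequences come from RefSeq (GRCm38.p6), 250 bases before to 50 after the gene's first listed start, 5' to 3' on the gene's strand, and capitals mark matches on either strand to TATAAA or to TGANTCA, the site bound by AP-1 factors, with none to the NF-kB motif in these. They lie at chr1:107362064-107362363, plus strand for Serpinb11, at chr1:107422439-107422738, plus strand for Serpinb7, at chr1:107511173-107511472, plus strand for Serpinb2, at chr1:107589756-107590055, plus strand for Serpinb8, and at chr12:104112474-104112773, plus strand for Serpina3a.
Serpinb11: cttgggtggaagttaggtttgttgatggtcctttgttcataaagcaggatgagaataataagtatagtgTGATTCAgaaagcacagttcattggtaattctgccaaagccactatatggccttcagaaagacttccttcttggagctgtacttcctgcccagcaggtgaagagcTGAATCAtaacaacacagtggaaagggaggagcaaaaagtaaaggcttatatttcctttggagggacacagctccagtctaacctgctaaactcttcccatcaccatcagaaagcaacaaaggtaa
Serpinb7: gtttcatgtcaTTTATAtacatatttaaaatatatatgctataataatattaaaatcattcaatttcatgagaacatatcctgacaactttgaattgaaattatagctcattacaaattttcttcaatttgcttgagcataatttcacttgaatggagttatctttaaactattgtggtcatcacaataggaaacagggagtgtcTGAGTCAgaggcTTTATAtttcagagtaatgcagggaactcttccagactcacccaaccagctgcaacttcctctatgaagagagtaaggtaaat
Serpinb2: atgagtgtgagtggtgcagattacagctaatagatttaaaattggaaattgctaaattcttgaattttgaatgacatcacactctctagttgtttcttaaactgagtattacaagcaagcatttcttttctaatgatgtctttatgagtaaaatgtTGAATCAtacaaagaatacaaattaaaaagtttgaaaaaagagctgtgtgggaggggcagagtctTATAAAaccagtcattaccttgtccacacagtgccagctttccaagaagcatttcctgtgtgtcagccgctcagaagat
Serpinb8: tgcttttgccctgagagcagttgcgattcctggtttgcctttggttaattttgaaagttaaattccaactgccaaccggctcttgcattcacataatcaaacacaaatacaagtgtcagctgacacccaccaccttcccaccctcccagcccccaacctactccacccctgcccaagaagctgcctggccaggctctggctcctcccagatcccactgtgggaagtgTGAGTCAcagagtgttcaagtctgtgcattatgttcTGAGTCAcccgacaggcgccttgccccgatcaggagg
Serpina3a: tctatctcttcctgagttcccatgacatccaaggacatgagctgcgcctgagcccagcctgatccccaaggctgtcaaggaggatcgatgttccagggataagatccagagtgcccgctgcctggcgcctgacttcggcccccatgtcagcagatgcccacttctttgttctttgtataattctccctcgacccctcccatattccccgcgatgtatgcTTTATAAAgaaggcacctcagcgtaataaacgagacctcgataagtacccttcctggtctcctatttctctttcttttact

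Of the 40 members, 34 had a promoter in that table. TGANTCA was found in 8 of the 34, where 7.81% of 32851 promoters of the same length hold it. Among the 7 clade b members on chromosome 1 it was found in 6, both rising genes and 4 of the 5 falling ones, and among 10 clade b members with a promoter on chromosome 13 it was found in 0. TATAAA was found in 8 of the 34, against 13.6% of all promoters, and the NF-kB motif in 2 of 34, against 4.51%. On the gene's own strand and 40 to 20 bases before the start, TATAAA stood in Serpina3a and Serpinb2, in both at 29 bases, against 1.99% of all promoters. In Serpina3a this match overlaps one on the opposite strand. A match is only a run of letters and says nothing of binding.

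**Figure D2:**
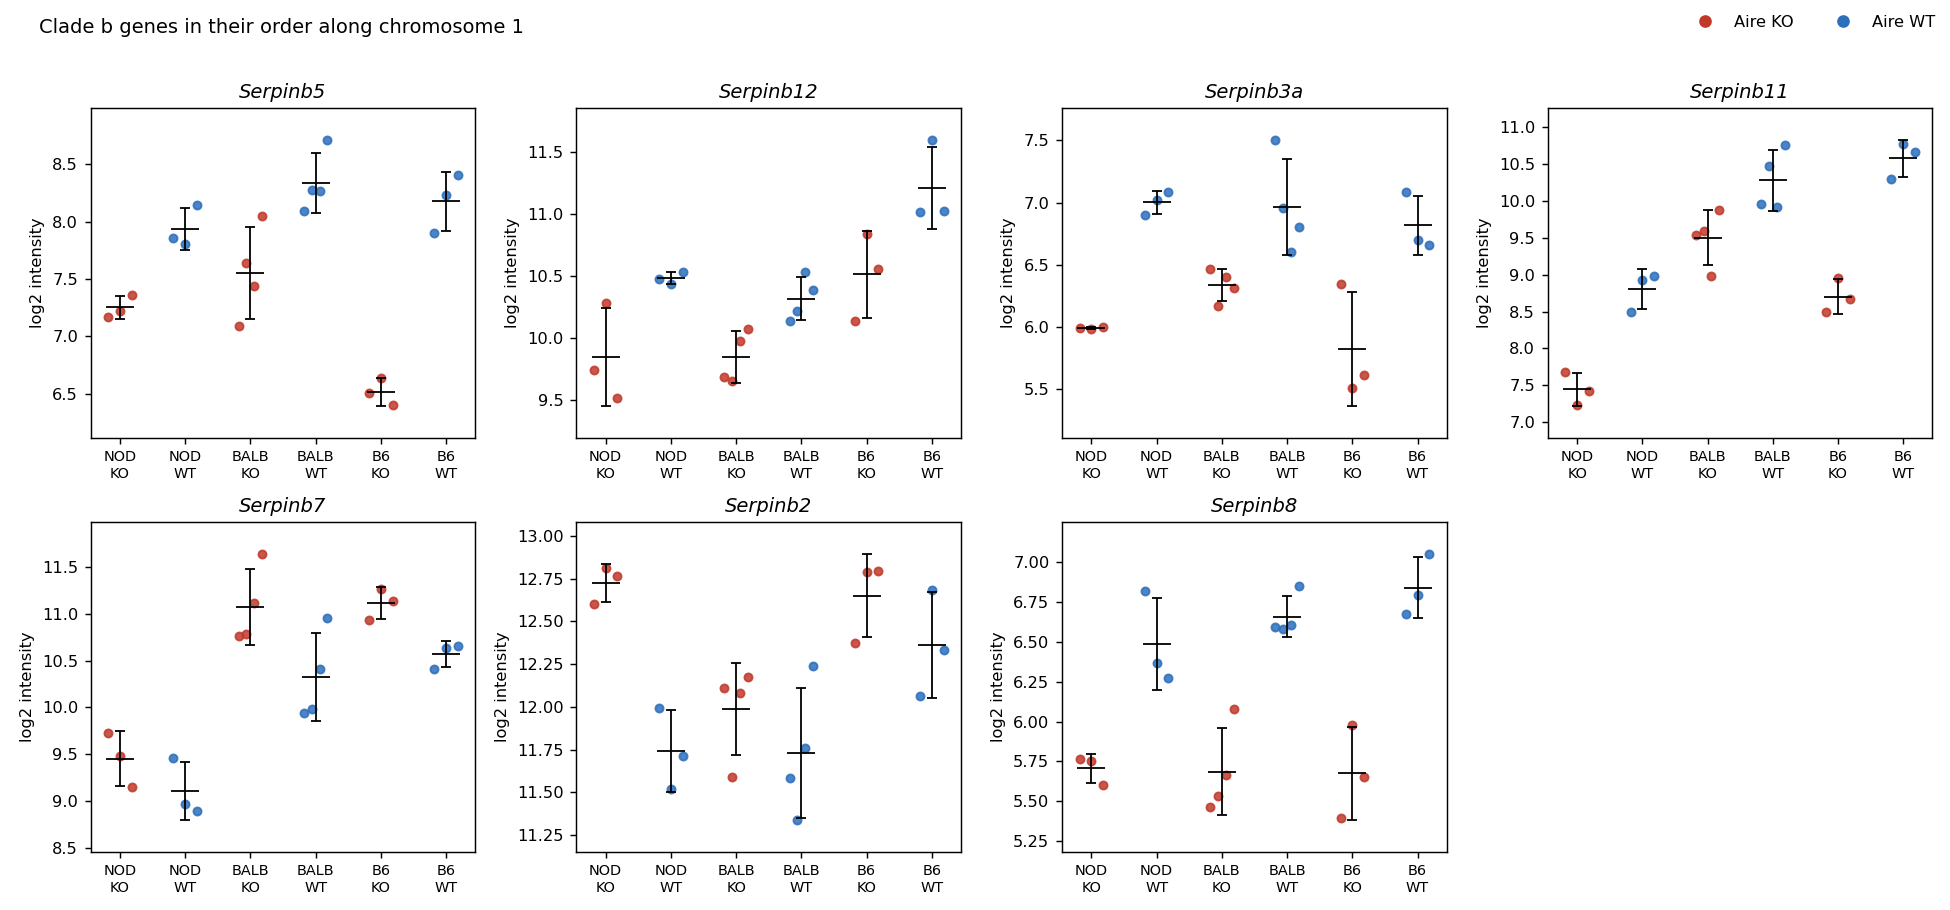
Each panel is 1 clade b gene of the chromosome 1 cluster in gene order, with log2 intensity on the vertical axis, each scaled to its own range. Points are single mice (red for Aire KO, blue for Aire WT) in NOD, BALB and B6, with the mean and SD as bars; KO mice lie below WT mice in all strains for Serpinb5, Serpinb12, Serpinb3a, Serpinb11 and Serpinb8.

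Serpinb11 showed the largest averaged fall of the family. Serpinb11 read 7.68, 7.23 and 7.42 in NOD KO mice, against 8.49, 8.93 and 8.99 in NOD WT mice. Serpinb11 in BALB read 9.54, 9.59, 8.98 and 9.87 in KO mice, against 9.96, 10.47, 9.92 and 10.77 in WT mice. Serpinb11 in B6 read 8.49, 8.95 and 8.66 in KO mice, against 10.30, 10.77 and 10.66 in WT mice. KO mice lay below WT mice in every strain without overlap, with NOD mice of both genotypes lowest within their genotype. The averaged difference was -1.34 ± 0.13 (SE), a 2.53-fold fall (limma, adjusted p = 6.71e-07), with -1.36 in NOD, -0.78 in BALB and -1.87 in B6. Serpinb5, or maspin, a serpin of epithelial cells that does not inhibit proteases, fell as well. Serpinb5 had 7.17, 7.22 and 7.36 in NOD KO mice, against 7.86, 7.81 and 8.15 in NOD WT mice. Serpinb5 in BALB had 7.09, 7.64, 7.44 and 8.05 in KO mice, against 8.10, 8.28, 8.26 and 8.71 in WT mice. Serpinb5 in B6 had 6.51, 6.64 and 6.40 in KO mice, against 7.90, 8.23 and 8.41 in WT mice. In the probe set used, its KO mice were below the WT mice of their strain throughout, and the gap was widest in B6. The averaged difference of Serpinb5 was -1.04 ± 0.11 (SE; adjusted p = 1.59e-06), and its other probe sets read -0.40, -0.99 and -1.05, all called. In each of these others the groups overlapped in BALB. The NOD difference was not called in the probe set used (-0.69) or in the others (-0.07, -0.41 and -0.71).

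On chromosome 13 the clade b cluster holds Serpinb1a, Serpinb1b and the groups of close copies around Serpinb6 and Serpinb9. Of its 11 members 4 were called lower and 1 higher. Over the brightest probe set of each gene, 16.6% were called lower and 9.7% higher. Probes may be shared within the groups of close copies, so values of single copies are uncertain. Serpinb6c and Serpinb9b fell most. Serpinb6c read 5.88, 5.95 and 6.25 in NOD KO mice, against 6.73, 7.38 and 7.51 in NOD WT mice. Serpinb6c in BALB read 5.72, 5.41, 5.95 and 6.35 in KO mice, against 7.08, 6.71, 7.33 and 6.81 in WT mice. Serpinb6c in B6 read 6.09, 5.79 and 6.0 in KO mice, against 7.43, 6.90 and 7.60 in WT mice. In all strains the KO mice of Serpinb6c lay below the WT mice. Its averaged difference was -1.22 ± 0.13 (SE; limma, adjusted p = 2.46e-06), with -1.18 in NOD, -1.13 in BALB and -1.35 in B6. Serpinb9b had 7.72, 8.12 and 7.97 in NOD KO mice, against 8.75, 8.74 and 9.02 in NOD WT mice. Serpinb9b in BALB had 7.78, 7.72, 7.81 and 7.82 in KO mice, against 9.22, 9.05, 8.19 and 8.60 in WT mice. Serpinb9b in B6 had 8.05, 7.95 and 7.74 in KO mice, against 8.95, 9.02 and 8.98 in WT mice. Serpinb9b likewise separated KO from WT mice in all strains, with an averaged difference of -0.98 ± 0.11 (SE; adjusted p = 1.81e-06) and values of -0.90 in NOD, -0.98 in BALB and -1.07 in B6.

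**Figure D3:**
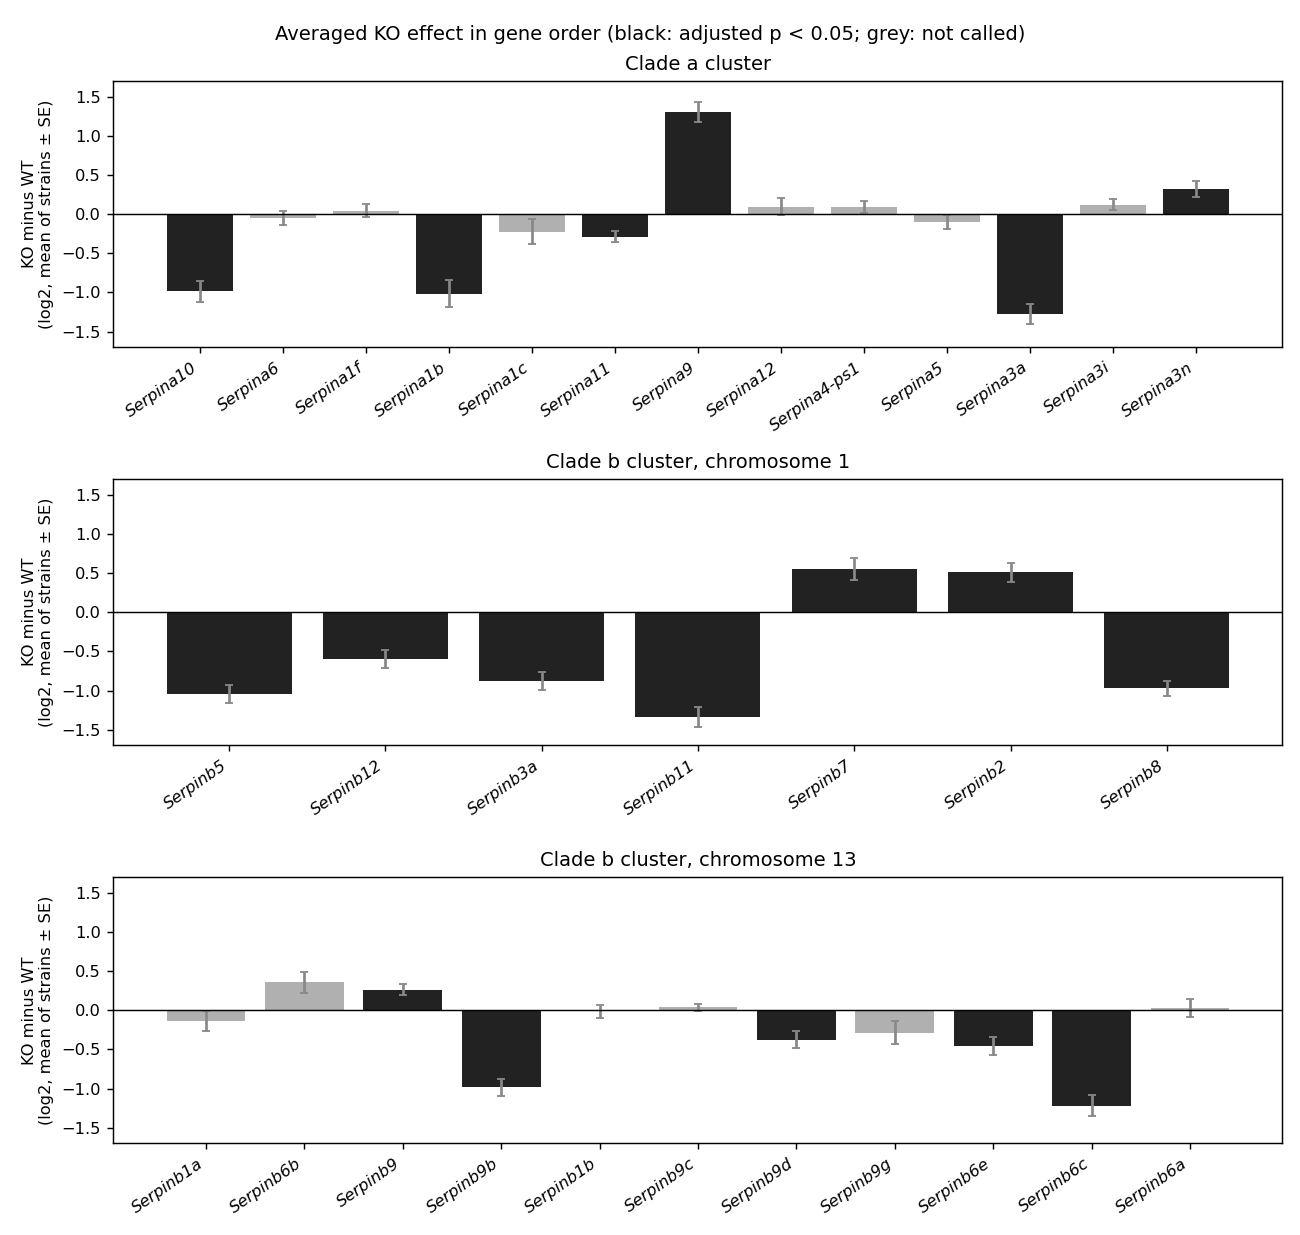
Bars give the averaged KO minus WT difference (log2, with SE) of the measured members in RefSeq gene order, for the clade a cluster on chromosome 12 and the clade b clusters on chromosomes 1 and 13; black bars were called and grey bars were not. All 7 bars of the chromosome 1 cluster are black, against 6 of 13 on chromosome 12 and 5 of 11 on chromosome 13. Among the brightest probe sets of all genes 16.6% were called lower and 9.7% higher.

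The other called members of clade b were smaller in size. Serpinb8, known in humans as an inhibitor of furin, read -0.97 ± 0.10 (SE; limma, adjusted p = 8.11e-07; other probe set -0.62). Serpinb3a, a mouse counterpart of the squamous cell carcinoma antigens, read -0.88 ± 0.12 (adjusted p = 2.05e-05). Serpinb12, an inhibitor of trypsin-like proteases, read -0.60 ± 0.11 (adjusted p = 0.000868; other probe set -0.75). All 3 had KO mice below WT mice in every strain. Serpinb6e fell by 0.46 ± 0.11 (adjusted p = 0.00699) and Serpinb9d by 0.37 ± 0.11 (adjusted p = 0.0175). Without the 3 B6 arrays with the lowest Gapdh difference the adjusted p of Serpinb9d was 0.136, and without the NOD mice numbered 3 it was 0.0587, in a range of 0.00158 to 0.136 over all alternatives.

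The 3 clade b members that rose were Serpinb7, or megsin, known from kidney mesangium and epidermis, Serpinb2, the plasminogen activator inhibitor of macrophages and keratinocytes, and Serpinb9, which blocks granzyme B and shields cytotoxic lymphocytes from their own granules. Serpinb7 read 0.55 ± 0.14 (SE; limma, adjusted p = 0.01), with an adjusted p of 0.0818 without the 3 B6 arrays with the lowest Gapdh difference, in a range of 1.45e-06 to 0.0818. Serpinb2 read 0.51 ± 0.12 (adjusted p = 0.00469), with 0.98 in NOD, 0.26 in BALB and 0.29 in B6. Serpinb9 changed least, by 0.26 ± 0.07 (adjusted p = 0.00786; other probe set 0.73). In the probe set used, every KO mouse of Serpinb9 read above every WT mouse in all 3 strains. This held for 1 of 40 members, near the share of 1.37% over all probe sets. In the other probe set of Serpinb9 the groups overlapped in B6, where WT mouse 2 (10.61) read above KO mouse 1 (10.15). The 6 clade b members not called were Serpinb1a, Serpinb1b, Serpinb6a, Serpinb6b, Serpinb9c and Serpinb9g, between -0.29 and 0.36. A dimmer probe set of Serpinb9c read -0.21 and was called (adjusted p = 0.0372), against 0.04 in the one used. Markers of cornifying keratinocytes, all 5 measured, of which 4 fell, averaged 7.53 to 7.97 in NOD KO mice against 8.09 to 8.85 in NOD WT mice, 8.72 to 9.96 in BALB KO mice against 9.14 to 10.26 in BALB WT mice, and 7.75 to 8.61 in B6 KO mice against 9.27 to 9.94 in B6 WT mice. Their part in the falls of clade b was not tested.

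In the other clades, Serping1, the inhibitor of complement C1, and Serpinh1, a collagen chaperone of the endoplasmic reticulum, fell most. Serping1 read 7.53, 7.56 and 7.50 in NOD KO mice, against 8.09, 8.50 and 8.45 in NOD WT mice. Serping1 in BALB read 7.41, 7.49, 7.39 and 7.96 in KO mice, against 7.71, 7.50, 7.94 and 8.24 in WT mice. Serping1 in B6 read 7.04, 7.24 and 7.10 in KO mice, against 8.25, 8.61 and 8.51 in WT mice. KO and WT mice were apart in NOD and B6 and overlapped in BALB, where KO mouse 4 was the highest of the KO mice. The averaged difference of Serping1 was -0.81 ± 0.10 (SE; limma, adjusted p = 6.93e-06), with -0.81 in NOD, -0.29 in BALB and -1.33 in B6. Serpinh1 had 8.03, 7.76 and 7.95 in NOD KO mice, against 8.75, 8.53 and 8.50 in NOD WT mice. Serpinh1 in BALB had 7.74, 8.24, 7.80 and 7.77 in KO mice, against 8.42, 8.89, 8.26 and 8.13 in WT mice. Serpinh1 in B6 had 7.94, 7.56 and 7.48 in KO mice, against 8.14, 7.78 and 8.16 in WT mice. NOD KO mice of Serpinh1 lay below the WT mice and the groups overlapped in BALB and B6. Its averaged difference was -0.53 ± 0.10 (adjusted p = 0.00105; other probe set -0.99). In that other probe set KO mice lay below WT mice without overlap in NOD, BALB and B6. Fibroblast markers, all 5 measured, of which 3 fell and 2 rose, averaged 6.95 to 7.18 in NOD KO mice against 7.35 to 7.51 in NOD WT mice, 6.98 to 7.27 in BALB KO mice against 7.20 to 7.41 in BALB WT mice, and 7.16 to 7.71 in B6 KO mice against 7.35 to 7.46 in B6 WT mice, and their part in the Serpinh1 values was not tested.

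Serpini1, or neuroserpin, which inhibits tissue plasminogen activator in the brain, was higher in KO mice. Serpini1 gave 8.93, 8.88 and 8.35 in NOD KO mice, against 8.86, 8.49 and 7.74 in NOD WT mice. Serpini1 in BALB gave 8.82, 9.19, 8.75 and 8.50 in KO mice, against 8.63, 8.79, 8.05 and 8.01 in WT mice. Serpini1 in B6 gave 9.07, 9.51 and 9.68 in KO mice, against 8.50, 9.18 and 8.47 in WT mice. In the probe set used the groups overlapped in all 3 strains, and the averaged difference was 0.50 ± 0.16 (SE; limma, adjusted p = 0.0339). Its other probe sets read 0.67 (adjusted p = 0.00474), with KO mice above WT mice without overlap in NOD and B6, and 0.10 (adjusted p = 0.226). The call was lost without B6 KO mouse 2 or 3, B6 WT mouse 1 or 3, BALB KO mouse 2, BALB WT mouse 3 or 4, NOD KO mouse 1 or 2, or NOD WT mouse 3. Its adjusted p was 0.111 without the 3 B6 arrays and 0.0662 with B6 KO mice 2 and 3 as 1 sample, in a range of 0.000425 to 0.111.

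Serpind1, heparin cofactor II, an inhibitor of thrombin, was lower. Serpind1 read 6.85, 7.19 and 6.95 in NOD KO mice, against 6.95, 7.50 and 7.29 in NOD WT mice. Serpind1 in BALB read 6.85, 6.69, 6.79 and 6.78 in KO mice, against 7.25, 6.79, 7.03 and 7.09 in WT mice. Serpind1 in B6 read 7.03, 7.38 and 7.05 in KO mice, against 7.41, 7.51 and 7.85 in WT mice. KO mice lay below WT mice without overlap in B6 only, and the averaged difference was -0.32 ± 0.09 (SE; limma, adjusted p = 0.0139). The plasma inhibitors antithrombin (Serpinc1, -0.21 ± 0.10) and antiplasmin (Serpinf2, 0.15 ± 0.05, adjusted p = 0.0505) did not pass in the averaged contrast. In B6 alone Serpinc1 was called lower in KO mice (limma, adjusted p = 0.0329). That B6 call was lost without B6 KO mouse 1 or 2 or B6 WT mouse 2 or 3. Serpini2 read 0.06, and Serpinf1, the pigment epithelium-derived factor, read 0.12 in the probe set used and -0.34 in a dimmer one that was called (adjusted p = 0.021).

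Taken strain by strain, 11 of 40 members were called in NOD (8 lower, 3 higher), 11 in BALB (9 lower, 2 higher) and 14 in B6 (13 lower, 1 higher), where 4.23%, 6.84% and 8.62% of all probe sets were called. Over all probe sets 2.81% were called lower and 1.42% higher in NOD, 4.26% lower and 2.57% higher in BALB, and 5.54% lower and 3.08% higher in B6. Every KO mouse read below every WT mouse for 11 members in NOD, 13 in BALB and 16 in B6, against 10%, 5.6% and 11% of all probe sets, and above for 7, 3 and 5 members, against 14.4%, 6.08% and 14.5%. The largest called differences were those of Serpina9 (2.62), Serpinb11 (-1.36) and Serpina3a (-1.30) in NOD, of Serpina1b (-1.34), Serpina3a (-1.16) and Serpinb6c (-1.13) in BALB, and of Serpinb11 (-1.87), Serpinb5 (-1.66) and Serpina3a (-1.38) in B6. Of 15 members called lower in any strain, 6 were called in each of the 3, namely Serpina3a, Serpinb3a, Serpinb6c, Serpinb8, Serpinb9b and Serpinb11. The number called lower in all 3 was 3 without the 3 B6 arrays with the lowest Gapdh difference, 2 without the NOD mice numbered 3 (Serpina3a and Serpinb11), and 4 to 6 with any 1 mouse left out. The 5 members called higher in any strain were not called in all 3. The share of all probe sets called in all 3 strains was not counted, so these counts have no background beside them. Every KO mouse read below every WT mouse in all 3 strains for 9 members, against 3.17% of all probe sets. The NOD count was 4 without the NOD mice numbered 3, which leaves mice 1 and 2 of each genotype. The B6 count was 9 without B6 WT mouse 3. It was lower still without the 3 B6 arrays with the lowest Gapdh difference. That fit keeps only KO mouse 1 and WT mice 1 and 3 in B6. The BALB call of Serpinb11 was lost without BALB KO mouse 1 or 3 or WT mouse 2 or 4, and that of Serpinb3a without any of 12 of the 20 mice. In NOD, Serpinb8 was lost without KO mouse 3 or WT mouse 1, and Serpinb9b without KO mouse 1 or WT mouse 3. The labels carry sample codes in runs of unstated meaning, and 5 sets hold mice of both genotypes of a strain within a run. In these 5 sets the difference had the sign of the averaged one throughout for 15 of the 16 members called lower and 5 of the 6 called higher, the exceptions being Serpinb9d and Serpina3n. It ran from -1.91 to -0.65 for Serpinb11, from -1.56 to -0.86 for Serpina3a and from 0.38 to 2.82 for Serpina9. These sets are drawn from the same arrays that gave the calls, so a shared sign is no separate support. The share of all probe sets that kept their sign was not counted. With same-numbered BALB and NOD mice as pairs, Serpina9, Serpinb1b, Serpinb9 and Serpinh1 were also called in BALB (limma, adjusted p = 0.0387, 0.0359, 0.0134 and 0.011). So were Serpina7, Serpina12 and Serpinb5 in NOD (0.00329, 0.0381 and 0.00493) and Serpinb6b in the averaged contrast (0.0141). Serpinb7, Serpind1 and Serpini1 were called in B6 (0.00431, 0.0437 and 0.0343, against 0.235, 0.0994 and 0.163 in the main fit). B6 mice were not paired in this fit, and their spread estimate was shared with the paired strains. The B6 p-values therefore do not measure the spread among B6 mice alone.

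The effect of the knockout differed between strains for 2 of 40 members (limma F test over the strain differences), where 0.435% of all probe sets passed. Serpina9, whose values stand above, differed between KO and WT mice by 2.62 ± 0.23 in NOD (SE), 0.52 ± 0.20 in BALB and 0.78 ± 0.23 in B6, and the F test gave an adjusted p of 0.0049. The NOD effect was larger than the BALB effect by 2.09 ± 0.30 (adjusted p = 0.00629) and than the B6 effect by 1.84 ± 0.32 (adjusted p = 0.0223). Without the NOD mice numbered 3, whose dendritic cell and macrophage markers were highest, the adjusted p of the F test was 0.0569, in a range of 2.47e-05 to 0.0569 over all alternatives. The part of those markers in the NOD values was not tested.

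Serpinb1b, a copy of the leukocyte elastase inhibitor in mice, went opposite ways. Serpinb1b read 8.92, 9.11 and 8.79 in NOD KO mice, against 8.44, 7.87 and 7.76 in NOD WT mice. Serpinb1b in BALB read 7.42, 7.47, 7.34 and 7.67 in KO mice, against 8.01, 7.68, 7.94 and 7.95 in WT mice. Serpinb1b in B6 read 7.95, 7.91 and 8.10 in KO mice, against 8.57, 8.51 and 8.50 in WT mice. The NOD KO mice read above the NOD WT mice, while KO mice read below WT mice in BALB and in B6, without overlap. The differences were 0.92 ± 0.15 in NOD (SE; adjusted p = 0.000818), -0.42 ± 0.13 in BALB (adjusted p = 0.0616) and -0.54 ± 0.15 in B6 (adjusted p = 0.0282), and the strain difference had an adjusted p of 0.00337 (limma). The B6 call was lost without B6 KO mouse 1 or 2 or B6 WT mouse 1 or 3, without the 3 B6 arrays with the lowest Gapdh difference, and with B6 KO mice 2 and 3 as 1 sample, and its adjusted p ran from 0.005 to 0.294 over the alternatives. The averaged difference of Serpinb1b was -0.01 ± 0.08. With same-numbered BALB and NOD mice as pairs, the F test also passed for Serpina7 (adjusted p = 0.0424), Serpinb5 (0.0321) and Serping1 (0.0262).

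**Figure D4:**
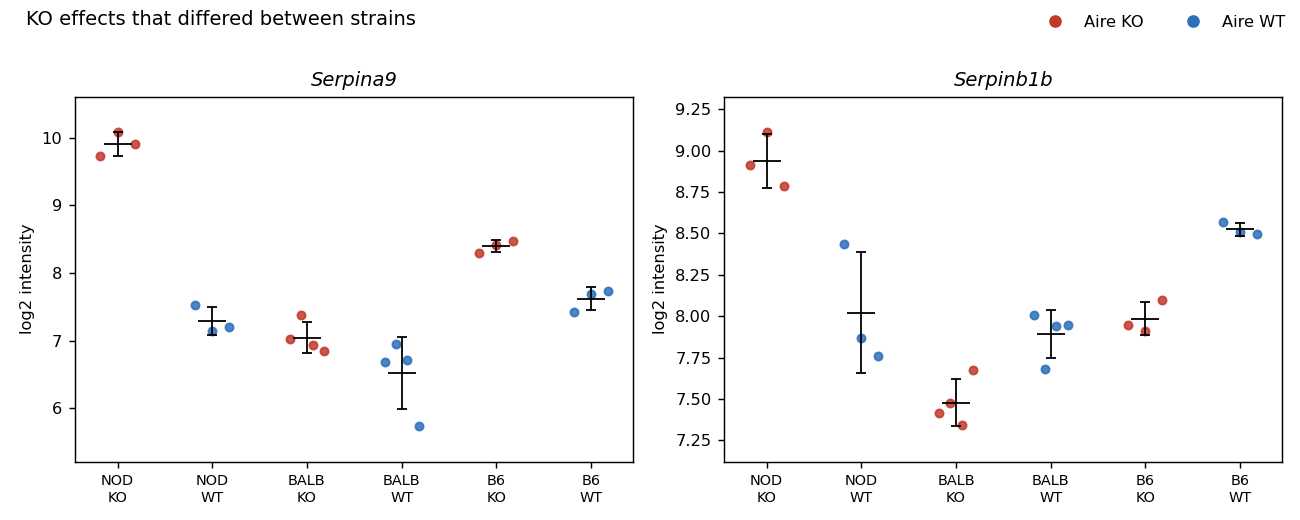
Log2 intensity of Serpina9 and Serpinb1b in single mice (points, red for Aire KO and blue for Aire WT) of NOD, BALB and B6, with the mean and SD as bars. NOD KO mice of Serpina9 lie between 9.73 and 10.08, above all other mice, and for Serpinb1b KO mice lie above WT mice in NOD and below them in BALB and B6.

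Serpin probe set signals also differed between strains among WT mice. Probe sequences were not compared between the strains, so a difference in signal need not be one in transcript level. Called were 5 of 40 members for NOD minus BALB (3 lower and 2 higher in NOD), 9 for NOD minus B6 (7 lower, 2 higher in NOD) and 10 for BALB minus B6 (9 lower, 1 higher in BALB), where 6.14%, 7.04% and 6.1% of all probe sets were called (limma). Over all probe sets 3.66% were lower and 2.48% higher for NOD minus BALB, 4.51% lower and 2.53% higher for NOD minus B6, and 3.53% lower and 2.57% higher for BALB minus B6. These contrasts use the same WT arrays as the KO contrasts. After quantile normalization of the arrays the NOD minus B6 calls were 5 lower and 4 higher and the NOD minus BALB calls 2 lower and 4 higher, and with arrays centred on their medians the NOD minus BALB calls were 3 lower and 1 higher. The count for NOD minus BALB was 3 without NOD WT mouse 2 or 3, and also without the NOD mice numbered 3. That for NOD minus B6 was 4 without NOD WT mouse 2 or B6 WT mouse 2 or 3, and 5 without NOD WT mouse 3, without the NOD mice numbered 3 or without the 3 B6 arrays with the lowest Gapdh difference. The count for BALB minus B6 was 6 without B6 WT mouse 2 or 3. With same-numbered BALB and NOD mice as blocks, the NOD minus B6 calls of Serpina3i and Serpinb1b were lost (adjusted p = 0.0618 and 0.0805), Serpina1c was called for NOD minus B6 (0.0451) and Serpinb6b for NOD minus BALB (0.0369).

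Serpinc1, antithrombin, the main plasma inhibitor of thrombin, showed the widest strain difference. WT mice read 7.86, 7.84 and 7.91 in NOD, 5.88, 5.61, 5.79 and 5.55 in BALB and 8.02, 8.39 and 8.76 in B6. KO mice read 7.71, 7.83 and 8.10 in NOD, 5.67, 6.04, 5.78 and 5.42 in BALB and 7.48, 7.66 and 8.05 in B6. BALB mice of both genotypes lay below all NOD and B6 mice. Among WT mice the difference was 2.16 ± 0.17 for NOD minus BALB (SE; limma, adjusted p = 3.12e-07) and -2.68 ± 0.17 for BALB minus B6 (adjusted p = 1.22e-08).

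Serpina3n was lower in B6 than in both other strains. Its WT means were 7.91 ± 0.12 in NOD (SD, n = 3), 7.63 ± 0.42 in BALB (n = 4) and 6.34 ± 0.20 in B6 (n = 3), with differences of 1.57 ± 0.18 for NOD minus B6 (SE; limma, adjusted p = 2.46e-05) and 1.29 ± 0.17 for BALB minus B6 (adjusted p = 0.000106). Serpina7 averaged 9.88 ± 0.35 in NOD WT mice and 11.46 ± 0.34 in B6 WT mice, a difference of -1.58 ± 0.27 (adjusted p = 0.00109). Serpinb11 differed by -1.48 ± 0.22 for NOD minus BALB (adjusted p = 0.00048) and by -1.77 ± 0.24 for NOD minus B6 (adjusted p = 0.000121). Serpinb7 differed by -1.21 ± 0.24 for NOD minus BALB (adjusted p = 0.00424), and Serpina9 by -1.10 ± 0.21 for BALB minus B6 (adjusted p = 0.00384).

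**Figure D5:**
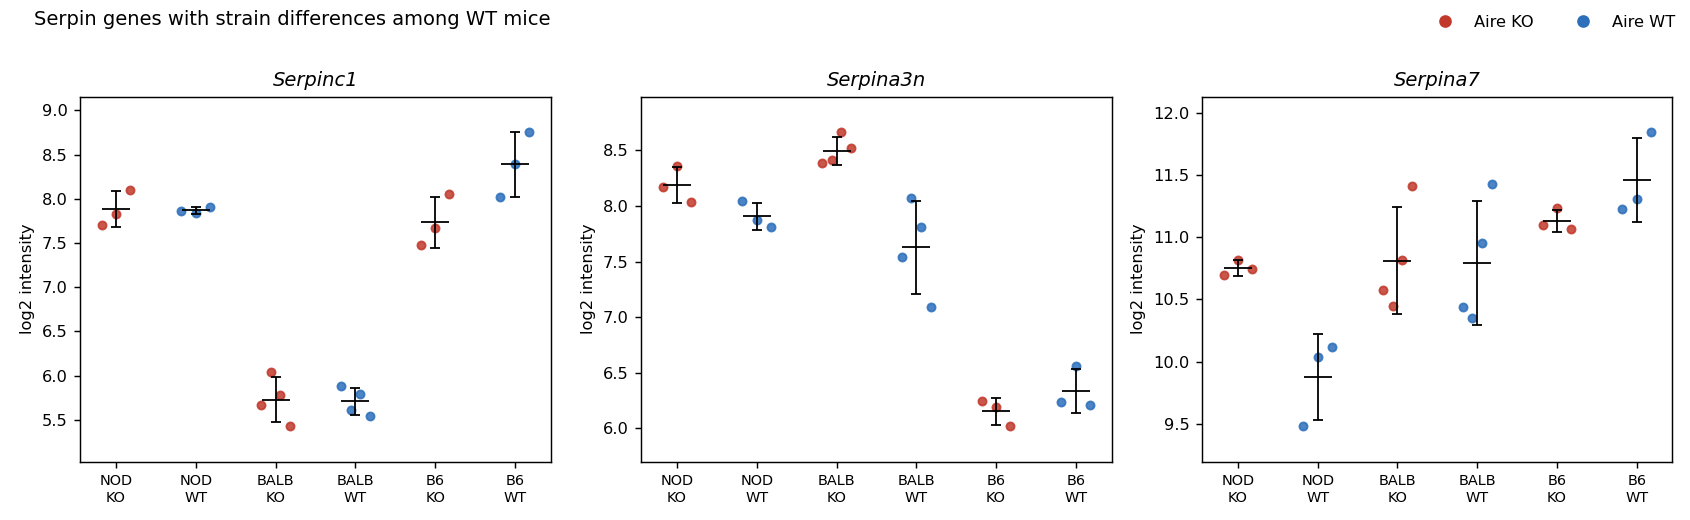
Log2 intensity of Serpinc1, Serpina3n and Serpina7 in single mice (points, red for Aire KO and blue for Aire WT) of NOD, BALB and B6, with the mean and SD as bars. All 8 BALB mice lie below 6.1 for Serpinc1, and all 6 B6 mice lie below 6.6 for Serpina3n.

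The series was made from individual mice, so the spread within a group could be read for each member. The median SD between mice over the 40 members was 0.16, 0.17, 0.23, 0.27, 0.18 and 0.22 in NOD KO, NOD WT, BALB KO, BALB WT, B6 KO and B6 WT mice, against 0.13, 0.13, 0.18, 0.20, 0.15 and 0.18 over all probe sets in the same groups. In BALB WT mice it was 0.37 for clade a, 0.27 for clade b and 0.19 for the others. Clade a was also above clade b in BALB KO mice (0.23 against 0.19). In the remaining groups clade a was below clade b. The medians were 0.16 against 0.18 in NOD KO, 0.13 against 0.22 in NOD WT, 0.13 against 0.24 in B6 KO and 0.19 against 0.25 in B6 WT mice. These are descriptions without a test. The signals of the members ranged from 4.10 to 12.52 as means over all arrays. The brightest probe sets in WT mice were those of Serpina7, Serpina12 and Serpina3a in clade a, of Serpinb9, Serpinb1a and Serpinb2 in clade b, and of Serpini1, Serpinh1 and Serping1 in the others, which orders probe sets and not transcripts. No detection calls were used, so a dim member cannot be called absent.

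Proteases that serpins are known to inhibit, and their clearance or cofactor partners, were read from a list of 49 genes, of which 47 were measured. In the averaged contrast 20 were lower and 4 higher in KO mice (limma), with a median of -0.11 against 0.06 over all probe sets, of which 10.1% and 10.5% were called. Over the brightest probe set of each gene, which is how the list was read, 16.6% were called lower and 9.7% higher. Granzyme B (Gzmb, -2.28 ± 0.13, adjusted p = 5.71e-10), the granule protease that Serpinb9 blocks, fell most. It was followed by the pancreatic trypsin Prss2 (-2.14), the epidermal kallikrein Klk5 (-1.82), the pancreatic chymotrypsin Ctrb1 (-1.65), Klk6 (-1.57), the mast cell chymase Cma1 (-1.28), Klk7 (-1.16), a kallikrein of the cornified layer, and granzyme A (Gzma, -0.95). Thymocyte markers, 8 of 9 measured, of which 2 fell, averaged 6.82 to 7.70 in NOD KO mice against 7.19 to 8.12 in NOD WT mice, 6.87 to 7.20 in BALB KO mice against 7.11 to 7.45 in BALB WT mice, and 6.91 to 7.07 in B6 KO mice against 7.15 to 7.33 in B6 WT mice. The keratinocyte markers given above had a median difference of -1.30. The part of either list in the protease values was not tested. The 4 that rose were tissue plasminogen activator (Plat, 0.57, adjusted p = 0.0498), prothrombin (F2, 0.52), caspase 1 (Casp1, 0.48) and Tmprss2 (0.33). Plat, the target of neuroserpin and of Serpinb2, and both of these inhibitors were higher in KO mice. The Plat call lay close to the threshold, and that of neuroserpin (Serpini1) was lost on leaving out any of 10 mice. Granzyme B and its inhibitor Serpinb9 moved in opposite directions, with Serpinb9 higher by 0.26. These pairs were picked after their values were seen, and a link between protease and inhibitor was not tested.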

How the data were processed

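The table that the authors deposited gives linear intensities, 1 value for a probe set on an array. The submitters' processing notes name RMA, and its version, settings and the arrays normalized together are not stated in what was used here. RNA of each sorted sample was extracted with Trizol and amplified in successive rounds with a MessageAmp kit before biotin labelling, per the labels' protocols, a step that can favour 3' ends. RMA usually removes array-wide shifts, so differences are relative to all probe sets.

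From these, log2 was taken and 64 control probe sets of 45101 were left out. The other 45037 were fitted with limma 3.58.1 in R 4.3.3 as 6 group means over 20 arrays (14 residual degrees of freedom), with Benjamini-Hochberg adjustment over all of them and a threshold of 0.05. Contrasts were KO minus WT in each strain and averaged, an F test over their strain differences, and strain differences among WT mice. The p-values measure the spread between mice of single thymi. The 40 members had 56 probe sets, 12 members had more than 1, and 3 probe sets with several Serpin symbols were left out. All 40 symbols matched RefSeq (GRCm38.p6), used for names and gene order, and 34 had a promoter there. The code was tested on simulated data.

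Members, gene lists and marker lists were chosen with earlier results of these data known. Values per mouse are given for the 4 members of each clade group with the largest called averaged difference. Named with values are the other members called in the averaged contrast, all members past the F test, and the 3 largest called differences in each strain and in each WT strain contrast, and named by level are the 3 brightest members of each clade group in WT mice. Up to 8 members of the protease list with the largest called difference are named. Values of members not called, per-mouse values of Serpinb1b and Serpinc1, the blocked calls and the 4 proteases that rose go beyond this rule and were chosen after their values were seen.

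Whether same-numbered mice of a strain deviated together from the means of their groups was checked by correlation over probe sets. All BALB pairs (r from 0.46 to 0.66) and all NOD pairs (0.31 to 0.67) exceeded 0.1 and were taken as pairs, and B6 numbers were not (0.78, 0.72 and -0.13). Alternatives covered scaling, an offset of 16, a filter on dim probe sets (log2 of 6 on 3 arrays), trended and robust variances, weights for arrays, blocks, fitting only the arrays of a contrast, the mean of a gene's probe sets, a 2-fold limit and leaving out each mouse. Leaving out 3 B6 arrays or the NOD mice numbered 3, and averaging B6 KO mice 2 and 3, the most alike pair of arrays, were added after seeing the data. Without the 3 B6 arrays, B6 keeps KO mouse 1 and WT mice 1 and 3. Without the NOD mice numbered 3, NOD keeps mice 1 and 2 of each genotype.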

Additional observations from a re-analysis of the deposited data

Results flagged for a closer look

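Serpina9 and Serpinb1b are listed because their knockout effect differed between strains by limma's F test (adjusted p = 0.0049 and 0.00337), and their values per mouse stand in the report.

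In BALB, the strain with 4 mice per group, each of 80 groups of 4 log2 values was checked for a mouse far from the others by Dixon's ratio, the gap to the nearest value over the whole range. The ratio passed its limit in 11 of 80 groups, where chance gives about 5%, and 5 of the 11 were BALB KO mouse 2. The value of the mouse, the range of the others and the ratio are given in brackets. BALB KO mouse 2 was low for Serpina1f (4.05, the others 4.53 to 4.62; 0.833), Serpina3a (6.46, the others 6.83 to 6.89; 0.852), Serpinb2 (11.59, the others 12.08 to 12.18; 0.832) and Serpinf1 (6.30, the others 6.76 to 6.82; 0.891). BALB KO mouse 2 was high for Serpinh1 (8.24, the others 7.74 to 7.80; 0.883). BALB KO mouse 3 was high for Serpina6 (4.92, the others 4.79 to 4.81; 0.851). BALB KO mouse 4 was high for Serping1 (7.96, the others 7.39 to 7.49; 0.837). BALB WT mouse 2 was low for Serpina1c (5.48, the others 6.56 to 6.78; 0.83). BALB WT mouse 3 was low for Serpinb9 (11.97, the others 12.40 to 12.45; 0.893). BALB WT mouse 3 was high for Serpinb9g (5.35, the others 4.49 to 4.53; 0.962). BALB WT mouse 4 was high for Serpinb8 (6.85, the others 6.58 to 6.60; 0.921).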

How the results depend on the processing

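Of the 22 averaged calls, 18 kept their call under all alternatives run other than the 2-fold limit, the exceptions being Serpina3n, Serpinb7, Serpinb9d and Serpini1, and 0 of 84 named values changed sign. The averaged count stayed between 19 and 26 apart from the 2-fold limit. With that limit 6 members were called in the averaged contrast, 5 in NOD, 3 in BALB, 8 in B6, 3 for NOD minus BALB, 4 for NOD minus B6, 4 for BALB minus B6, and 7 of the protease list, by construction. Array weights gave 19 in NOD, 25 in B6, 8 by the F test, 10 for NOD minus BALB and 14 for NOD minus B6. Fitting only the arrays of a contrast, with fewer samples, gave 7 in BALB, 9 in B6, 3 for NOD minus BALB, 5 for NOD minus B6 and 4 for BALB minus B6, and the run of sample codes as a block gave 4 for BALB minus B6. With the replicate number as a block in BALB and NOD, the pairing supported by the check, the F test called 5, and the other counts stayed within 1.5 times; calls it changed stand in the report. With the block in all strains, B6 numbers included, 19 were called in NOD, 19 in BALB, 24 in B6 and 8 by the F test. Without the 3 B6 arrays with the lowest Gapdh difference, fewer were called in B6 and for NOD minus B6. That fit keeps only KO mouse 1 and WT mice 1 and 3 in B6. Without the NOD mice numbered 3, 4 were called in NOD, 1 by the F test, 5 for NOD minus B6 and 3 for NOD minus BALB. Leaving out 1 mouse at a time gave 20 to 23 averaged calls, 8 to 13 in NOD, 8 to 11 in BALB, 9 to 14 in B6, 2 to 3 by the F test, 3 to 6 for NOD minus BALB, 4 to 11 for NOD minus B6, 6 to 11 for BALB minus B6 and 21 to 24 of the protease list. The causes of these shifts were not tested apart from those named. The dim filter kept 33 of 40 members. The median averaged difference of all probe sets was 0.06 as deposited, 0.06 after quantile normalization and 0.07 after centring.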
